A study of Mus musculus with 15 samples.

Results

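The comparison described here sets mouse embryonic stem cells after 240 h of Smarcb1 knockdown against the same cells after 72 h of knockdown. It rests on 6 of the 15 RNA-seq libraries of the study, 3 per group, chosen by their sample labels. All cells were of the line 81K1, which is based on the embryonic stem cell line OG2 and carries a cassette at the Rosa26 locus that expresses a short hairpin RNA against Smarcb1 in the presence of doxycycline. Treated cells (48 h kd, 72 h kd and 240 h kd) received 1 µg doxycycline per ml medium every day, and untreated cells of the same line (48 h ctrl and 240 h ctrl) carry the cassette without induction. All cells grew on gelatine with serum and leukaemia inhibitory factor (LIF). There is no control at 72 h among these libraries, no treated line without the hairpin was analysed here, and every library comes from 1 cell line. Nothing in the labels says that replicates came from separate cultures, so the p-values measure the spread between these libraries, which may be technical. Of 55228 listed genes, 16562 had a mean of at least 10 reads in the 6 libraries and were tested.

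Smarcb1 is a core subunit of BAF complexes, which move nucleosomes with the energy of ATP and open enhancers and promoters. In embryonic stem cells these complexes act beside Pou5f1, Sox2 and Nanog, and they oppose the Polycomb complex PRC2 at some genes and repress others alongside it. PRC2 writes a repressive histone mark on developmental genes. Cells in serum with LIF hold a naive state that can give way to a primed state, marked by Fgf5, Otx2 and the de novo DNA methyltransferases, or to extraembryonic and germ layer fates.

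Levels are given in RPM, reads per 1000000 reads of the library's total, recovered from the deposited FPKM, which compare 1 gene between libraries but not genes with each other. The 6 libraries held 12353047 to 14515300 reads. In a principal component analysis of all 15 libraries, the first component (44.2% of the variance) ran from the controls at 22.5 to 25.8 over 48 h kd at -4.36 to -3.74 and 240 h kd at -12.1 to -11.2 to 72 h kd at -32.7 to -32.4. The second component (31.7%) set 240 h kd at -35.9 to -34.5 apart from 48 h kd at 5.40 to 7.52 and 72 h kd at 18.5 to 18.7. The 240 h kd libraries had reads in 26393 to 26535 genes, against 24855 to 25002 in 72 h kd, and mitochondrially encoded genes took 1.39% to 1.95% of reads, against 0.931% to 1.16%. Library preparation, days in culture and time of knockdown cannot be told apart between both groups. Summed over 8 embryonic stem cell markers, including Pou5f1, Sox2, Nanog and Esrrb, levels were 6311 to 6517 RPM in 72 h kd and 4785 to 4878 RPM in 240 h kd, all 8 being present in both groups. The controls and 48 h kd lay in between, at 5098 to 5963 RPM, and the largest part of the difference came from Dppa5a, while Utf1 went the other way (log2 fold change 0.25).

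Smarcb1 itself was at 13.4, 15.9 and 12.7 RPM in the 72 h kd libraries and at 17.9, 15.4 and 15.9 RPM in the 240 h kd libraries. The 48 h ctrl libraries held 84.7, 85.96 and 97.8 RPM, the 240 h ctrl libraries 82.2, 88.3 and 84.5 RPM and the 48 h kd libraries 12.5, 20.4 and 15.3 RPM. All 6 libraries compared lay far below all controls, and their ranges overlapped, with a log2 fold change of 0.23 ± 0.096 (SE) from 72 h to 240 h (adjusted p = 0.0379), under the size needed for a call.

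A gene was called where the limma test gave an adjusted p under 0.05 and the absolute log2 fold change was above 0.58. Between 72 h and 240 h of knockdown 4150 genes were called, 25.1% of those tested, with 2030 higher at 240 h (12.3%) and 2120 lower (12.8%). At any size of change, 65.0% of genes had an adjusted p under 0.05. With values rescaled to TPM, 2473 genes were higher and 1684 lower, so the share of higher genes among the calls went from 48.9% to 59.5%. The 3 libraries of each group did not overlap for 4047 of the called genes, which is 97.5% of them against 68.1% of all tested genes. The median absolute log2 fold change over all tested genes was 0.31, and the median signed change was -0.016. Strong changes were more often upward, with 196 genes above a log2 fold change of 2 and 68 below -2. Direction went with read number. Among 3859 genes with a mean under 50 reads 1038 were called higher and 584 lower, whereas among 12703 genes with 50 reads or more 992 were higher and 1536 lower. The part of the larger number of genes detected in 240 h kd in this was not tested.

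**Figure D1:**
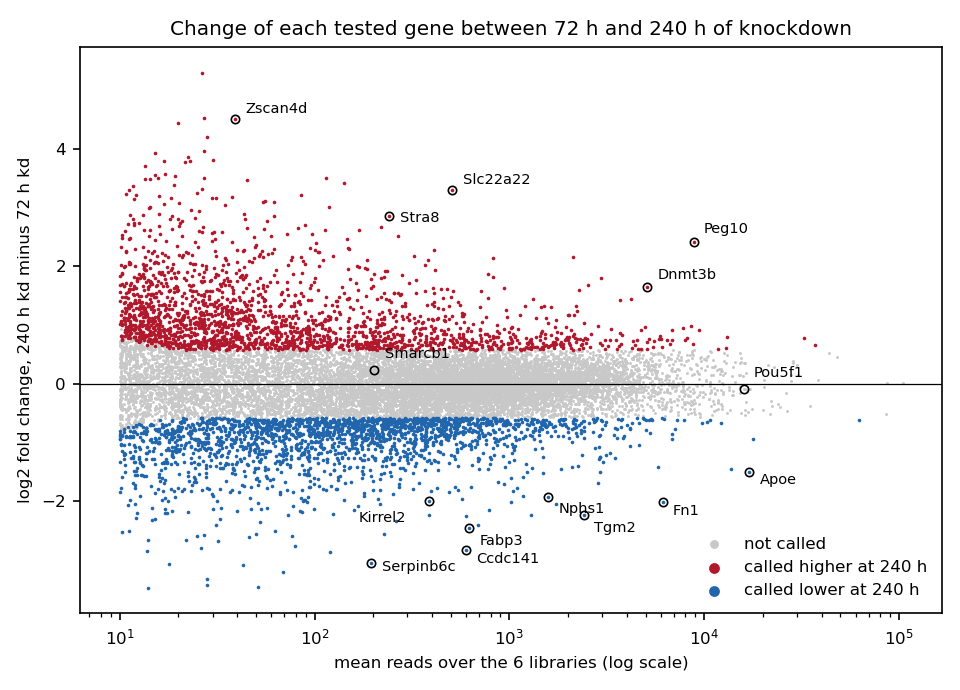
Log2 fold change from 72 h kd to 240 h kd (vertical axis) against the mean reads per gene over the 6 libraries (horizontal log axis) for 16562 tested genes, with called genes in colour and some named genes ringed. Rises above 4 occur only at low read numbers, Peg10 has the highest read number among the rises over 2, and Smarcb1 and Pou5f1 lie near 0.

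The 3 genes that mark the comparison, Nphs1, Kirrel2 and Fabp3, all fell, by factors between 3.78 and 5.48. Nphs1 and Kirrel2 encode nephrin and a nephrin-like adhesion protein, immunoglobulin-type membrane proteins best known from the slit diaphragm of kidney podocytes. Nphs1 was at 188, 208 and 183 RPM at 72 h and at 56.7, 45.4 and 51.3 RPM at 240 h. This is a 3.78-fold lower level (log2 fold change -1.92 ± 0.057, adjusted p = 5.79e-21), and no 240 h library came near a 72 h library. Kirrel2 was at 47.3, 47.9 and 47.9 RPM at 72 h and at 12.97, 11.2 and 11.7 RPM at 240 h, a 3.97-fold fall (log2 fold change -1.99 ± 0.072, adjusted p = 4.92e-19). Fabp3, a fatty acid binding protein of muscle and heart, was at 81.6, 82.7 and 79.5 RPM and then at 14.7, 14.3 and 15.2 RPM, a 5.48-fold fall (log2 fold change -2.45 ± 0.059, adjusted p = 4.11e-23). All 3 had passed above the controls by 72 h and lay below them at 240 h. Nphs1 averaged 85.3 ± 6.74 RPM in 48 h ctrl and 94.6 ± 11.1 RPM in 240 h ctrl (SD, n = 3), Kirrel2 23.3 ± 1.69 and 22.9 ± 1.56 RPM, and Fabp3 39.7 ± 3.61 and 31.8 ± 1.59 RPM. The last 81 bases of Fabp3 on chromosome 4 overlap Zcchc17, a gene on the other strand, and reads were counted irrespective of strand. Zcchc17 was not called, with a log2 fold change of -0.071. Fabp3 also overlaps the predicted gene Gm10570. Nphs1 overlaps the antisense gene Nphs1os and the pseudogene Rps12-ps4, whose reads its values include.

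Nphs1 and Kirrel2 are neighbours on chromosome 7 of GRCm38 (mm10). Kirrel2 occupies 30447534 to 30457690 on the minus strand and Nphs1 30458315 to 30487223 on the plus strand, so that they run away from each other with 625 bases between the listed ends. Fabp3 occupies 130308595 to 130315463 on the plus strand of chromosome 4. The 250 bases before the RefSeq start (GRCm38.p6) of these genes are shown because the 3 fell together, beside those of 2 genes that rose, Dnmt3b and Stra8, described below. Except for Dnmt3b these RefSeq starts lie inside the gene spans of the deposited tables. Capitals mark, on either strand, GGGCGG (found in 32.7% of 32851 windows of this length), CCAAT (33.8%) and AGGTCA (14.02%). TATAAA (12.4%) and CACGTG (6.02%) were also searched and are in none of the 5 windows.
Kirrel2, chr7:30457516-30457765, minus strand: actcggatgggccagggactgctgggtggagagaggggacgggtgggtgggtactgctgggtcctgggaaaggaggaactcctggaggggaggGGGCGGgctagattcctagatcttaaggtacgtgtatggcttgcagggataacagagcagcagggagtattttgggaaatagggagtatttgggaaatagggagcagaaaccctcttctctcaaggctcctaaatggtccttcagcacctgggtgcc
Nphs1, chr7:30459808-30460057, plus strand: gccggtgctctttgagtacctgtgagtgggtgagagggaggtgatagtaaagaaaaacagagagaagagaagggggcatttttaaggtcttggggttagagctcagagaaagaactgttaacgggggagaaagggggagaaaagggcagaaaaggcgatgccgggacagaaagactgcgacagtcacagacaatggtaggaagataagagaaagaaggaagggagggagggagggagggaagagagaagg
Fabp3, chr4:130308488-130308737, plus strand: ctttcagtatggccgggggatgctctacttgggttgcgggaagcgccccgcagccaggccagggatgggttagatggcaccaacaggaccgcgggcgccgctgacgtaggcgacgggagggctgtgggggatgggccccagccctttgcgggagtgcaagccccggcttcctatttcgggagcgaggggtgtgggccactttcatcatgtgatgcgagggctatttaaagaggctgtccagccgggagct
Dnmt3b, chr2:153649199-153649448, plus strand: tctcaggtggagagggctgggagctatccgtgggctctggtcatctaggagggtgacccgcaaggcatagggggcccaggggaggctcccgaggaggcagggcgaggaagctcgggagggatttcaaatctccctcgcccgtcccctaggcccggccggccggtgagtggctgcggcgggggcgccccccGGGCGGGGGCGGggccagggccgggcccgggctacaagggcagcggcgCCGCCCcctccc
Stra8, chr6:34920698-34920947, plus strand: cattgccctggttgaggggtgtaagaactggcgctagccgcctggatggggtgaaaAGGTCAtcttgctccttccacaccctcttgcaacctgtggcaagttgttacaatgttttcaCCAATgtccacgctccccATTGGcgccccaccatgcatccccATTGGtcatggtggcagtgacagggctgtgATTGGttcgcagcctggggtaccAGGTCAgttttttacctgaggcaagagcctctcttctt
The Nphs1 and Fabp3 windows hold none of the 5 motifs, the Kirrel2 window holds GGGCGG once, the Dnmt3b window holds it 3 times, and the Stra8 window holds CCAAT 4 times and AGGTCA, the half-site of nuclear receptors, 2 times. The windows are 56.4% (Kirrel2), 50.8% (Nphs1), 64.8% (Fabp3), 75.2% (Dnmt3b) and 54.8% (Stra8) G or C, against a median of 52.4% over all windows. Of 9 tested genes of the slit diaphragm and podocytes 4 were called higher and 2 lower (44.4% and 22.2%, beside 12.3% and 12.8% of all genes), the latter being Nphs1 and Kirrel2. Podocalyxin (Podxl), a sialomucin of the podocyte surface, rose 2.17-fold to 32.99 ± 1.07 RPM, alpha-actinin 4 (Actn4), which crosslinks actin, 1.60-fold to 806 ± 7.22 RPM, and the scaffold gene Magi2 and the transcription factor gene Wt1 1.80- and 2.37-fold. Against 48 h kd, Podxl, Magi2 and Wt1 had log2 fold changes of 0.57, -0.40 and -0.18 and were not called higher, so their rise depended on the 72 h level, and the list had 1 rise and 2 falls, beside 8.29% and 7.03% of all genes. On log2(FPKM + 0.1) the calls of Magi2 and Wt1 were lost, at 0.010 and 0.30.

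**Figure D2:**
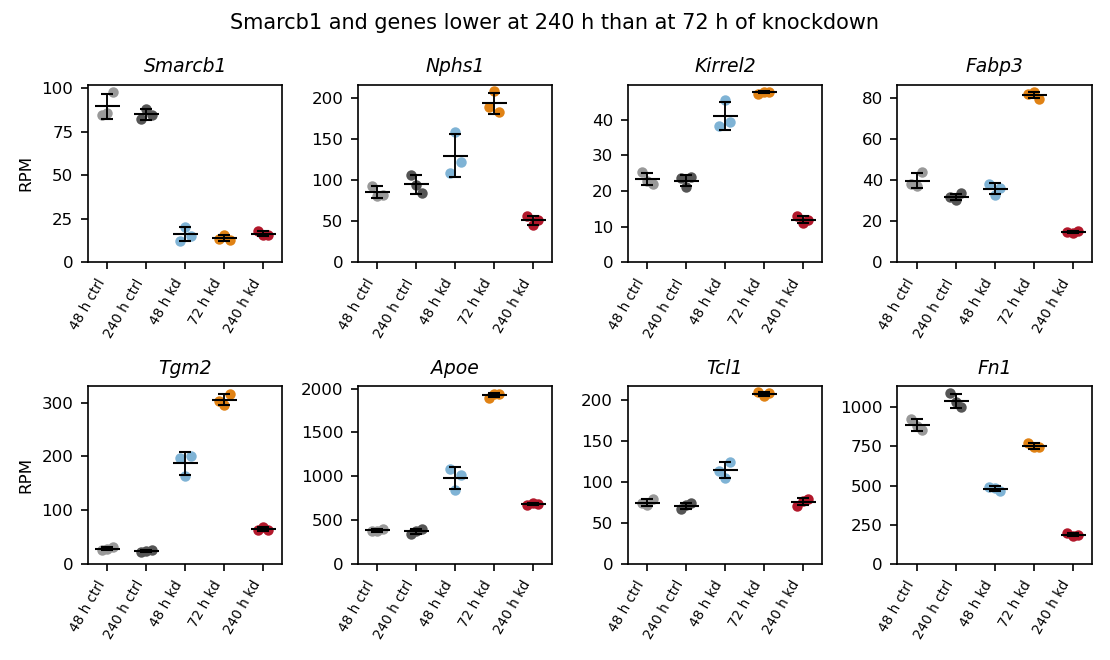
RPM (vertical axis, from 0) of Smarcb1 and of 7 genes that fell, in each library (points) of the 5 groups, with mean and SD as black marks. Smarcb1 is low in all 3 knockdown groups, and the other genes are lower in every 240 h kd library than in every 72 h kd library.

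The 10 largest falls among well-measured genes were those of Ly6g6e, Serpinb6c, Ccdc141, Tarm1, Gask1b, Msln, Mog, Fabp3, Lrrc34 and Slc39a8, with log2 fold changes from -3.20 to -2.35. Ccdc141, a coiled-coil protein, was at 85.3, 79.8 and 78.9 RPM at 72 h and 11.99, 12.3 and 9.99 RPM at 240 h, a 7.10-fold fall to a level under that of either control group (37.1 and 36.7 RPM). Serpinb6c, a serine protease inhibitor of a multi-copy cluster, went from 25.1, 29.8 and 26.7 RPM to 3.49, 2.69 and 3.52 RPM. Slc39a8, a zinc importer, averaged 6.84 ± 0.374 RPM at 72 h, close to its controls at 9.47 and 7.47 RPM, and 1.29 ± 0.404 RPM at 240 h. Mesothelin (Msln), a surface protein of mesothelial cells, and Mog, a myelin protein, were low in all 5 groups and peaked at 6.70 and 8.31 RPM at 72 h. Ly6g6e overlaps Ly6g6d, and Lrrc34 overlaps Lrriq4, so these values are uncertain. Against the 48 h kd libraries in place of 72 h kd, an alternative chosen after seeing the data, all 10 were again called lower.

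The 10 largest rises included those of Nlrp9b, Clca4a, Slc22a22, Enpp2, Syne3, Tril, Stra8, Gria4 and Soga3, with log2 fold changes from 3.50 to 2.67. Slc22a22, an organic anion transporter, was at 6.02, 7.53 and 6.85 RPM at 72 h and 77.5, 59.3 and 66.8 RPM at 240 h, a 9.83-fold rise. Nlrp9b, of the NLR family and known from oocytes and gut, went from 1.33, 1.38 and 1.13 RPM to 14.6, 16.1 and 15.6 RPM. Enpp2, which makes the lipid mediator lysophosphatidic acid, averaged 1.19 ± 0.473 RPM and then 11.3 ± 0.446 RPM, and Syne3, which links the nuclear envelope to the cytoskeleton, 0.913 ± 0.374 and then 8.18 ± 0.583 RPM. Gria4, which encodes a glutamate receptor subunit, rose from 1.05 ± 0.286 to 8.08 ± 0.632 RPM. The gene has a long span, and on log2(FPKM + 0.1), which damps genes of long span, its change was 0.24 and not called. Soga3 was at 4.28 RPM in 72 h kd against 15.9 to 27.8 RPM on average in the other 4 groups, and it was the 1 gene of the 10 not called against 48 h kd (log2 fold change 0.48).

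The core pluripotency factors changed by less than the size needed for a call. Pou5f1 averaged 1235 ± 48.5 RPM at 72 h and 1161 ± 27.3 RPM at 240 h (log2 fold change -0.089 ± 0.030). Sox2 went from 735 ± 14.9 to 516 ± 11.7 RPM (-0.51 ± 0.030) and Nanog from 587 ± 10.6 to 429.6 ± 8.98 RPM (-0.45 ± 0.030). Sox2 averaged 526 RPM in 48 h kd, and against that group its log2 fold change was -0.026 (limma adjusted p = 0.673). Pou5f1 and Nanog had -0.34 and -0.18 there. Nanog also fell in control, from 536 to 457 RPM (-0.23, limma adjusted p = 0.00245), without a call. Klf4 was at 279.8 ± 9.18 and 192 ± 11.4 RPM (-0.54 ± 0.039), and without 240 h kd replicate 1 it was called at -0.59. Tbx3 went the other way, at 38.7 ± 2.91 and 53.3 ± 4.48 RPM (0.46 ± 0.063), and it did so in control as well, from 83.8 to 116 RPM (0.47, adjusted p = 4.66e-05). The fit against 48 h kd called it higher (0.66). For Sox2, Nanog, Klf4 and Tbx3 the adjusted p was under 0.05 and the groups did not overlap, as for many genes whose shift is small.

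Of the whole list of naive pluripotency genes 5 of 26 were called lower and 2 higher, in all 26.9% beside 25.1% of all genes, with a median log2 fold change of -0.28 against -0.016 over all genes. Tcl1, a coactivator of Akt kinases, fell from 209, 205 and 208 RPM to 70.6, 77.02 and 79.5 RPM (log2 fold change -1.45 ± 0.042), which brought it close to its control levels of 74.6 and 70.6 RPM. Dppa5a, an RNA-binding protein of naive cells, did likewise, from 1767 to 926 RPM with controls at 861 and 789 RPM. Esrrb and Nr5a2, orphan nuclear receptors that sustain self-renewal, also fell, by 0.62 and 0.67 on the log2 scale. Esrrb ended well below its controls, at 472 ± 5.43 RPM against 797 and 821 RPM, and its call was lost at -0.53 with values rescaled to TPM. The other called members were Prdm14, given below, which fell, and Rex2 and Dppa2, which rose. Rex2, a zinc finger gene with close copies, had 1.15 ± 0.339 and 6.22 ± 0.501 RPM, and Dppa2, named here after its values were seen, had a log2 fold change of 0.59.

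In the list of the primed epiblast state rises outnumbered falls. Of 18 tested genes 10 rose (55.6% beside 12.3% of all genes) and 1 fell, with a median log2 fold change of 0.82. Dnmt3b, a de novo DNA methyltransferase, was at 180.0, 182 and 182 RPM at 72 h and 566, 569 and 567 RPM at 240 h, a 3.13-fold rise (log2 fold change 1.64 ± 0.031, adjusted p = 1.45e-25). Its controls lay in between, at 318 ± 8.56 and 304 ± 3.29 RPM. Dnmt3a, its paralog, was at 145, 147 and 153 RPM and then at 390.4, 404 and 406 RPM, and here 72 h was still at the control level of 142 RPM. Otx2, a homeobox factor of the early epiblast, rose from 3.05, 2.75 and 3.24 to 12.7, 11.99 and 15.1 RPM, which took it from well under the controls (11.3 and 9.50 RPM) to just above them. Fgf5 passed the minimum through its 240 h libraries alone, with reads of 3, 5 and 6 at 72 h and 63, 55 and 46 at 240 h (log2 fold change 3.16 ± 0.28). Sall2, a zinc finger factor, rose 2.17-fold and Dusp6, a phosphatase under ERK control, 1.71-fold, whereas the tight junction gene Cldn6 fell 2.38-fold. The other called members of the list, Cdh2, Pou3f1, Sox3 and Lef1, rose, and on log2(FPKM + 0.1) the calls of Cdh2 (0.34) and Lef1 (0.16) were lost.

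Among genes of the DNA methylation machinery, the de novo enzymes rose and the maintenance enzyme was not called. Dnmt3l, the cofactor of the de novo enzymes, was at 159, 163 and 179 RPM at 72 h and at 445, 467 and 451 RPM at 240 h (log2 fold change 1.45 ± 0.038), although it overlaps Aire. Dnmt1, the maintenance enzyme, averaged 400.5 ± 3.31 and 415 ± 7.89 RPM (log2 fold change 0.052 ± 0.030, adjusted p = 0.134). Prdm14, which represses the de novo enzymes in naive cells, fell from 28.4 ± 1.39 to 15.8 ± 1.24 RPM. Over the list 4 of 16 genes rose, Mbd1 being the fourth, and 1 fell, so that 31.2% were called beside 25.1% of all genes. Dnmt3a and Dnmt3b each overlap a listed antisense gene.

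The change with the lowest adjusted p among all tested genes was that of an imprinted gene. Peg10, a paternally expressed gene derived from a retrotransposon and needed in placenta, was at 204, 204 and 205 RPM at 72 h and at 1108, 1063 and 1104 RPM at 240 h. This 5.33-fold rise (log2 fold change 2.41 ± 0.030) had an adjusted p of 1.17e-29, and no other group of libraries averaged above 311 RPM. Sfmbt2, a Polycomb-type gene of the extraembryonic lineages, rose from 87.9, 77.96 and 84.5 to 261, 246 and 249.6 RPM. H19 and Igf2, neighbours under shared imprinting control on chromosome 7, rose from 10.5 ± 1.47 to 45.9 ± 7.25 RPM and from 7.10 ± 1.19 to 26.8 ± 2.27 RPM. Grb10, a growth factor receptor adaptor, had another course. It was at 16.95, 16.7 and 18.5 RPM at 72 h and 50.3, 56.2 and 53.2 RPM at 240 h, but 48 h kd already held 53.4, 52.95 and 54.1 RPM, so against 48 h kd its log2 fold change was -0.0081. The noncoding RNA gene Rian, expressed from the maternal allele, fell from 120.4 ± 3.52 to 75.8 ± 2.51 RPM. Its neighbours Meg3 and Mirg, maternally expressed noncoding genes of the same cluster, fell 1.88- and 1.74-fold, and all 3 were above their controls at 72 h, Meg3 at 47.00 RPM against 25.3 and 21.2 RPM. The remaining fall was that of Slc22a18, a transporter gene, from 26, 30 and 41 to 6, 3 and 1 reads. Meg3, Mirg and Slc22a18 were named after their values were seen. Over the list 13 of 31 tested genes rose and 4 fell (41.9% and 12.9%, beside 12.3% and 12.8% of all genes), and against 48 h kd 7 and 5 of 31, beside 8.29% and 7.03%. In knockdown 2 of these calls, that of Slc22a18 among them, passed the minimum through the higher group alone.

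**Figure D3:**
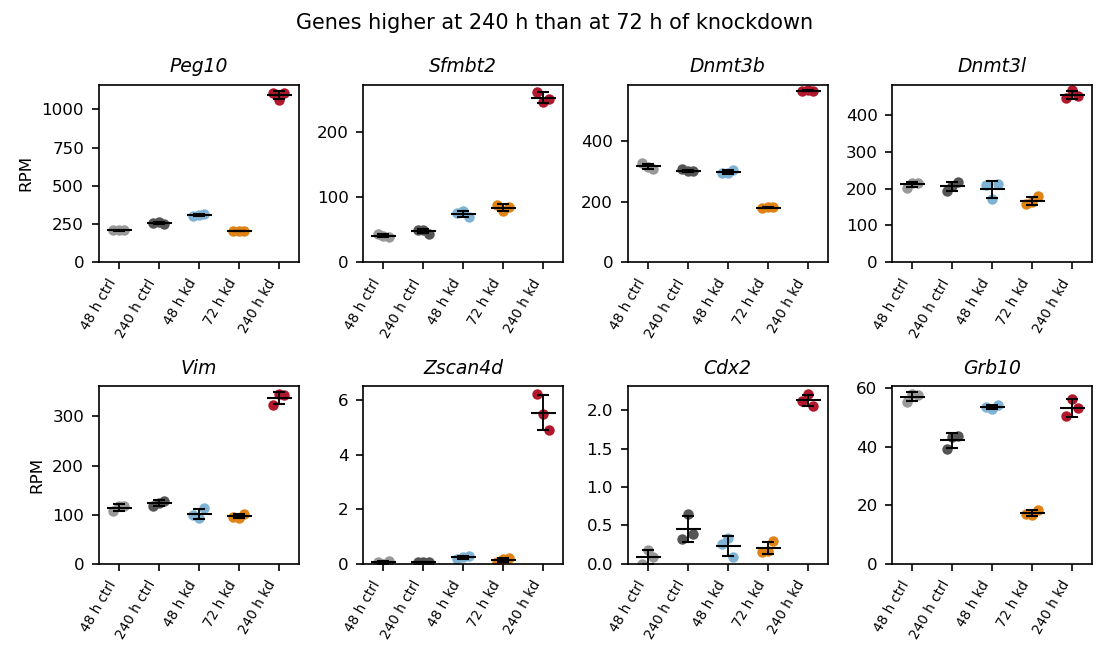
RPM (vertical axis, from 0) of 8 genes that rose, in each library (points) of the 5 groups, with mean and SD as black marks. Peg10, Sfmbt2, Dnmt3b, Dnmt3l, Vim, Zscan4d and Cdx2 are highest in 240 h kd, whereas Grb10 is low only in 72 h kd.

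Genes of the 2-cell stage, which are silent in most embryonic stem cells, appeared in the 240 h libraries. Summed over the 6 Zscan4 genes, 72 h kd libraries held 8, 4 and 14 reads and 240 h kd libraries 209, 256 and 203 reads, with at most 6 reads in any control or 48 h kd library. The 5 Usp17l genes summed to 13, 9 and 6 reads at 72 h and 90, 125 and 126 reads at 240 h. Zscan4d had 1, 2 and 3 reads and then 82, 80 and 67 reads, Zscan4a 1, 1 and 3 and then 49, 65 and 49 reads, and Zscan4b 1, 0 and 1 and 5, 14 and 10 reads. Of the 9 genes of the list with enough reads 8 were called higher and none lower, beside 12.3% and 12.8% of all genes, the exception being Eif1a at a log2 fold change of 0.23. The list has 26 genes, and 7 of the 9, those of the Zscan4 and Usp17l families and Gm5662, passed the minimum of 10 reads through their 240 h libraries, so their count carries little. The copies of these families are nearly identical, so which copy gave a read is uncertain, and bulk libraries cannot tell more cells with these transcripts from more transcripts per cell. Zfp809, a repressor of retroviral sequences, rose 1.63-fold to 62.3 ± 1.25 RPM.

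In the extraembryonic lists as well, more genes rose than fell. Of 14 tested trophoblast genes, of 22 listed, 8 rose (57.1% beside 12.3% of all genes) and 0 fell. However, 5 of the 8 averaged under 10 reads at 72 h and passed the minimum through their 240 h libraries, so this count carries little. Krt8 and Krt18, the paired keratins of simple epithelia and the first to appear in trophectoderm, went from 10.9, 9.07 and 10.2 to 24.4, 27.8 and 27.6 RPM and from 10.6, 8.50 and 9.87 to 26.8, 24.7 and 26.7 RPM. The transcription factors rest on few reads. Cdx2, which specifies trophectoderm, had 2, 2 and 4 reads at 72 h and 28, 32 and 28 reads at 240 h. Gcm1, of placental labyrinth, had 5, 0 and 0 and then 55, 53 and 49 reads, and Hand1, of trophoblast and mesoderm, 7, 1 and 4 and then 40, 56 and 50 reads. Gata2 rose from 0.938 ± 0.139 to 4.90 ± 0.435 RPM but was at 4.71 ± 1.26 RPM in 48 h kd and was not called against it. Eomes was not called, at 3.55 ± 0.701 and 2.50 ± 0.406 RPM, except that it was called lower at -0.60 without 240 h kd replicate 3 and at -0.65 without 72 h kd replicate 2. Krt7, another simple keratin, had 5, 6 and 4 and then 32, 29 and 27 reads, and Krt17 fell from 11.7 ± 0.751 to 3.57 ± 0.622 RPM, against 34.7 RPM in 48 h ctrl. The summed level of Cdx2, Elf5, Gata3, Tpbpa and Plac1 was 0.377 to 0.729 RPM at 72 h and 3.10 to 3.16 RPM at 240 h, with Tpbpa at 0 reads in all groups. This sum was 0.353 to 0.631 RPM in 48 h ctrl and 0.804 to 0.974 RPM in 240 h ctrl.

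Of 18 tested primitive endoderm genes, of 24 listed, 11 rose (61.1% beside 12.3% of all genes) and 1 fell, and 2 of those called passed the minimum through their 240 h libraries. The endocytic receptors Lrp2 and Cubn rose 2.00-fold and 2.84-fold, the basement membrane genes Sparc and Col4a1 1.81-fold and 2.12-fold, to 85.97 ± 5.76, 8.77 ± 0.260, 207 ± 3.28 and 30.98 ± 4.80 RPM. The transcriptional coactivator gene Cited1, 1 of the members that passed the minimum through the 240 h libraries, had 9, 8 and 7 and then 49, 48 and 64 reads. Cubn was also called higher in control, at a log2 fold change of 0.87 from 48 h to 240 h, and its call was lost on log2(FPKM + 0.1) (0.30). Col4a1 overlaps Col4a2. The laminin chain gene Lamc1 fell, from 984 ± 30.1 to 643 ± 8.90 RPM. Of the lineage factors, Gata6 rose from 1.44 ± 0.650 to 2.84 ± 0.396 RPM, a call lost on log2(FPKM + 0.1) (0.38), and Gata4 was at 3.51 ± 0.264 and 4.66 ± 0.491 RPM without a call, but was called higher against 48 h kd (1.00, adjusted p = 0.00278). Summed over Gata4, Gata6, Sox17, Pdgfra and Dab2 the level was 7.97 to 9.79 RPM at 72 h and 17.7 to 20.5 RPM at 240 h. The mesoderm list had 4 rises and 1 fall among 9 tested genes (44.4% and 11.1%, beside 12.3% and 12.8% of all genes). Of those called 2 passed the minimum through the higher group alone. The mesoderm marker sum over T, Mixl1, Eomes and Mesp1 overlapped, at 3.80 to 5.35 RPM and 4.86 to 5.80 RPM. Fibroblast markers (Thy1, Col1a1, Col1a2, Col3a1 and Postn) summed to 6.80 to 7.46 RPM at 72 h and 19.4 to 23.1 RPM at 240 h, of which Col1a1 alone averaged 15.5 RPM. All 5 had reads in both groups, and the sums in the controls ran from 5.95 to 9.01 RPM. Fibrillin 1 (Fbn1), of elastic microfibrils, rose from 2.29 ± 0.603 to 14.3 ± 1.55 RPM but had 10.9 RPM in 240 h ctrl. The part that cells of other types have in these results was not tested.

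Targets of retinoic acid, the vitamin A product that drives differentiation, moved in both directions. Of 14 tested genes 7 rose and 3 fell (50% and 21.4%, beside 12.3% and 12.8% of all genes), and the call of Cyp26a1 passed the minimum of 10 reads through its 240 h libraries alone. Tgm2, a transglutaminase that crosslinks proteins, was at 304, 296 and 316 RPM at 72 h and at 62.7, 68.9 and 62.5 RPM at 240 h, a 4.72-fold fall (log2 fold change -2.24 ± 0.041) that still left it above the controls at 27.97 and 23.8 RPM. Stra8, which starts meiosis in germ cells, went from 3.59, 4.53 and 4.52 to 29.1, 31.7 and 32.6 RPM, with its controls at 1.93 and 2.08 RPM. Cyp26a1, which degrades retinoic acid, had 3, 5 and 4 reads and then 35, 53 and 40 reads. Rarg, a nuclear receptor for retinoic acid, rose 1.82-fold to 354 ± 10.2 RPM. Crabp1, the retinoic acid binding protein, fell 2.17-fold to 4.90 ± 1.46 RPM. Rarb had too few reads to be tested. Tgm2 overlaps Rprd1b.

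Among signalling genes, targets of LIF and Stat3 were mixed, with 3 rises and 3 falls among 18 genes (16.7% and 16.7%, beside 12.3% and 12.8% of all genes). The kinase genes Pim3 and Pim1 fell, Pim3 from 323, 332 and 336 to 134, 132 and 129.8 RPM and Pim1 from 381 ± 12.97 to 206 ± 1.92 RPM. Pim1 thereby came back to its 48 h kd level of 204 RPM, whereas Pim3 ended below both controls (243 and 222 RPM). Myc rose from 50.99 ± 4.64 to 127 ± 9.43 RPM, but 48 h kd also held 120.3 RPM. Socs3, the feedback inhibitor of this pathway, fell 1.55-fold to 163 ± 5.89 RPM, a call lost at -0.55 with values rescaled to TPM, and Cish, of the same family, rose 1.95-fold to 16.03 ± 1.01 RPM. The receptor genes Lifr and Il6st were not called, with log2 fold changes of 0.11 and -0.24.

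In the Nodal and BMP list 4 genes rose and 4 fell among 18 (22.2% and 22.2%, beside 12.3% and 12.8% of all genes), 1 of them passing the minimum through the higher group alone. Lefty1 and Lefty2, secreted inhibitors that Nodal itself induces, fell 2.83-fold and 2.26-fold, Lefty1 from 320.1, 326 and 338 to 112, 119 and 117 RPM. Nodal itself was not called, at 104 ± 2.46 and 101 ± 1.96 RPM (log2 fold change -0.052 ± 0.040, adjusted p = 0.261). Id3 and Id1, direct targets of BMP signals, rose, Id3 from 14.3, 14.98 and 14.7 to 47.6, 46.3 and 42.3 RPM and Id1 from 44.8 ± 0.852 to 83.9 ± 5.69 RPM. Id1 was not called against 48 h kd (-0.11). Inhbb, an activin subunit, fell from 29.4 ± 1.32 to 11.99 ± 1.76 RPM, both far under its controls at 84.3 and 92.5 RPM. Id4 fell as well and Smad6 and Msx2 rose.

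Of 12 Wnt targets 3 rose and 2 fell (25% and 16.7%, beside 12.3% and 12.8% of all genes), 1 of them passing the minimum through the higher group alone. Tcf7l1, the main TCF factor of embryonic stem cells and a repressor of Wnt targets, rose from 86.96, 87.8 and 88.05 to 159.5, 155 and 151 RPM, above its controls at 96.2 and 104 RPM. Tcf7, its activating relative, fell from 79.1 ± 4.69 to 49.9 ± 1.12 RPM, a call lost at -0.58 with values rescaled to TPM. The feedback genes Axin2 and Nkd1 parted, Axin2 having a log2 fold change of 0.24 ± 0.15 without a call and Nkd1 falling from 6.22 ± 0.476 to 2.32 ± 0.529 RPM, a call lost on log2(FPKM + 0.1) (-0.49). Among immediate early genes Fos and Dusp1 fell 2.40- and 2.27-fold, and Fosl2 and Ccn1 rose 2.36- and 1.72-fold. In the order 48 h, 72 h and 240 h of knockdown Fos averaged 2.50, 8.87 and 3.66 RPM and Ccn1 8.03, 15.2 and 26.4 RPM, so that the former peaked at 72 h and the latter was highest at 240 h.

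In both lists of fatty acid genes falls outnumbered rises against 72 h kd. Besides Fabp3, the list of fatty acid binding and lipid storage had falls of Apoe, Apoc1, Scarb1 and Pltp and rises of Fabp5 and Dgat2, in all 5 falls and 2 rises of 13, or 38.5% lower and 15.4% higher beside 12.8% and 12.3% of all genes. Apolipoprotein E (Apoe), a carrier of cholesterol, was at 1897, 1934 and 1944 RPM at 72 h and at 666, 697 and 685 RPM at 240 h, a 2.82-fold fall (log2 fold change -1.50 ± 0.028). It remained above the controls at 383 and 369 RPM. Apoc1, its neighbour in a shared gene cluster, fell 2.77-fold, the HDL receptor gene Scarb1 1.93-fold and the phospholipid transfer gene Pltp 1.54-fold. Pltp, which overlaps Ctsa, was called in the opposite direction against 48 h kd (0.87, adjusted p = 1.87e-07), with means of 97.03 RPM at 48 h, 273 RPM at 72 h and 177 RPM at 240 h. Rescaled to TPM its fall of -0.54 was not called. Fabp4 had no read in any library.

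Of 23 genes of fatty acid oxidation and lipolysis 6 fell and 0 rose, a share of 26.1% beside 12.8% of all genes. Against 48 h kd the list had 1 rise and 2 falls of 23, and that of storage 1 and 2 of 13, beside 8.29% and 7.03% of all genes. The calls of Apoe, Apoc1, Scarb1, Fabp5, Cpt1b, Acads, Pnpla2 and Ehhadh were lost there. Cpt1a and Cpt1b, which bring long-chain fatty acids into mitochondria, fell from 78.1, 77.1 and 78.6 to 30.7, 26.1 and 28.9 RPM and from 12.4 ± 0.264 to 3.67 ± 0.381 RPM. Acads and Ehhadh, enzymes of fatty acid oxidation, Pnpla2, the first lipase of fat stores, and Pdk4, a brake on glucose oxidation, fell by 0.64, 0.85, 0.64 and 1.46 on the log2 scale. Rescaled to TPM the calls of Acads (-0.56) and Pnpla2 (-0.55) were lost. In cholesterol synthesis 4 of 24 genes fell (16.7%, beside 12.8% of all genes) and 0 rose. The falls were those of Msmo1, Insig1, Tm7sf2 and Mvk, and the list median was -0.41, while Hmgcs1, an early enzyme of the pathway, had a log2 fold change of -0.19 without a call. Against 48 h kd limma called 0 of the 24 genes in either direction, beside 15.3% of all genes, and 11 had an unadjusted p under 0.05.

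Glycolytic and hypoxia genes had 5 falls and 2 rises among 31, together 22.6% and thus no more than the 25.1% of all genes. Ldhb, a lactate dehydrogenase subunit, fell from 164, 172 and 158 to 32.9, 36.6 and 36.4 RPM (log2 fold change -2.22 ± 0.049) and Aldoc, an aldolase, from 26.8 ± 3.34 to 6.43 ± 0.329 RPM. Both ended under their controls, Ldhb against 107 and 79.7 RPM. The glycolytic enzyme gene Eno2, the hypoxia-induced prolyl hydroxylase gene Egln3 and Vegfa, the growth factor of blood vessels, fell 2.42-, 2.29- and 1.62-fold. The glucose transporter genes Slc2a1 and Slc2a3 had -0.17 and -0.45 without a call. In the amino acid stress list 7 genes fell and 1 rose of 30 (23.3% and 3.33%, beside 12.8% and 12.3% of all genes). The list median was -0.24 in knockdown and -0.25 in control from 48 h to 240 h, where 1 member was called lower. Cbs, Gpt2, Asns, Cth and Trib3, enzymes and regulators of amino acid metabolism, fell by 1.35, 0.84, 0.77, 0.84 and 0.82 on the log2 scale, and Atf4 and Atf5 had -0.44 and -0.23 without a call, though Atf5 was called lower against 48 h kd (-0.72). Among 27 redox genes 5 rose and 6 fell (18.5% and 22.2%, beside 12.3% and 12.8% of all genes). Gpx1, Prdx6 and the metallothionein gene Mt2 rose 2.24-, 1.88- and 2.20-fold, whereas Srxn1 and catalase (Cat) fell 2.18- and 1.89-fold. Of the carbonic anhydrases, Car2 stood at 312, 319 and 327 RPM at 72 h and 531, 585 and 574 RPM at 240 h, with its controls at 107 and 119.6 RPM. Car4 and Car3 rose to 27.02 ± 2.69 and 13.8 ± 0.333 RPM, and Car14 and Car5b fell to 7.59 ± 0.410 and 1.65 ± 0.251 RPM, the call of Car5b being lost on log2(FPKM + 0.1) (-0.31). Of the Cyp2b cluster, whose copies are alike, Cyp2b23 rose from 12.1, 10.1 and 8.89 to 48.2, 50.2 and 52.4 RPM, with no more than 4.26 RPM on average in the controls and 48 h kd, and Cyp2s1 fell 1.64-fold.

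**Figure D4:**
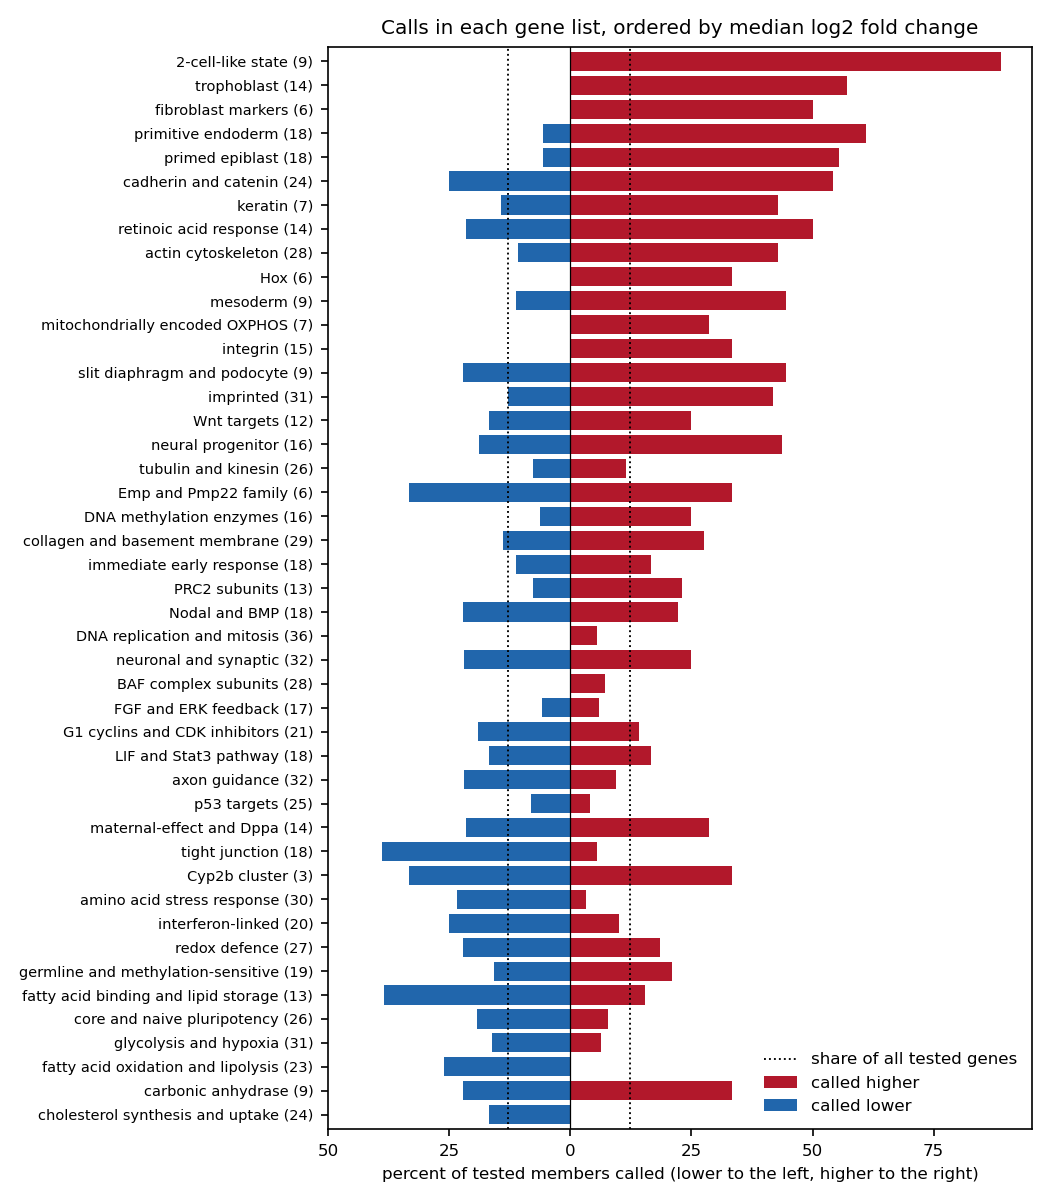
Share of tested members called higher (red, right) and lower (blue, left) at 240 h against 72 h of knockdown in each gene list, with the number of tested members in brackets and lists ordered by median log2 fold change. Dotted lines mark the shares over all tested genes, 12.3% higher and 12.8% lower, and the 2-cell-like, trophoblast, fibroblast, primitive endoderm and primed epiblast lists stand at the top. The order rests on tested members, of which some called ones averaged under 10 reads at 72 h. These were 7 in the 2-cell-like list, 5 in trophoblast, 2 in primitive endoderm and 1 each in the fibroblast and primed epiblast lists.

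Among cadherin and catenin genes 13 of 24 rose and 6 fell, 79.2% in all beside 25.1% of all genes, though 2 of these passed the minimum through the higher group alone, and against 48 h kd 10 and 4 of 23, beside 8.29% and 7.03%. Cdh1, E-cadherin, was at 440.0 ± 12.8 RPM at 72 h and 293 ± 6.95 RPM at 240 h (log2 fold change -0.59 ± 0.032), a change so near the limit that the call was lost at -0.57 without 240 h kd replicate 3, at -0.57 without 72 h kd replicate 1, at -0.58 without 72 h kd replicate 3, at -0.58 on log2(FPKM + 0.1) and at -0.50 with values rescaled to TPM. Cdh2, N-cadherin, rose from 1.56, 1.13 and 1.05 to 7.28, 7.99 and 7.20 RPM, back to near its controls at 8.63 and 7.83 RPM, a call lost on log2(FPKM + 0.1) as given above. Cdh3, P-cadherin, fell 2.43-fold to 35.7 ± 2.18 RPM, and the desmosomal cadherin gene Dsg2 1.80-fold. Pcdh1, a protocadherin, rose from 6.34 ± 0.449 to 22.2 ± 3.71 RPM and Fat1, a giant atypical cadherin, 1.67-fold. Of 18 tight junction genes 7 fell and 1 rose (38.9% and 5.56%, beside 12.8% and 12.3% of all genes). Cldn4 went from 140.1, 143 and 144 to 40.8, 37.5 and 35.8 RPM, and Tjp3, Cldn7 and Cldn3 fell 3.67-, 2.20- and 2.60-fold, while Marveld1 rose 1.56-fold. Cldn3 was also called lower in control (log2 fold change -0.83). Tjp3 overlaps Apba3. The integrin list had 5 rises and 0 falls among 15 (33.3% and 0%, beside 12.3% and 12.8% of all genes), 1 of the rises passing the minimum through the 240 h libraries alone, with Itga3, a laminin receptor chain, going from 22.03, 16.8 and 20.5 to 54.1, 52.98 and 56.9 RPM and Itga7 and Itgb3 rising 2.22- and 1.82-fold, the call of Itgb3 being lost on log2(FPKM + 0.1) (0.37).

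In the extracellular matrix fibronectin (Fn1) fell from 774, 744 and 744 to 196, 179 and 186 RPM, a 4.03-fold fall (log2 fold change -2.01 ± 0.034, adjusted p = 2.99e-26) from a 72 h level already under the controls at 887 and 1041 RPM. Agrin (Agrn) fell 2.32-fold, while the collagen I genes Col1a1 and Col1a2 rose from 4.89 ± 0.387 to 15.5 ± 1.90 RPM and from 0.487 ± 0.305 to 1.93 ± 0.267 RPM. Col1a1 was also called higher in control, at a log2 fold change of 0.64, and the call of Col1a2, which passed the minimum through its 240 h libraries alone, was lost on log2(FPKM + 0.1) (0.43). Over 29 collagen and basement membrane genes 8 rose and 4 fell (27.6% and 13.8%, beside 12.3% and 12.8% of all genes), 4 of them passing the minimum through the higher group alone. The list median was 0.16 in knockdown and 0.20 in control, with 1 control call in each direction. Of 28 actin cytoskeleton genes 12 rose and 3 fell (42.9% and 10.7%, beside 12.3% and 12.8% of all genes), the call of Acta2 passing the minimum through its 240 h libraries alone. Against 48 h kd 13 of 28 rose and 0 fell, beside 8.29% and 7.03% of all genes. The filamin gene Flnc rose 3.28-fold, alpha-actinin 4 (Actn4) 1.60-fold and moesin (Msn) 1.70-fold, calponin 3 (Cnn3) fell 1.67-fold, and smooth muscle actin (Acta2) went from 3, 2 and 5 reads to 30, 42 and 29 reads.

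Of 16 tested progenitor genes 7 rose and 3 fell (43.8% and 18.8%, beside 12.3% and 12.8% of all genes). Vimentin (Vim), an intermediate filament of progenitors and mesenchyme, was at 95.6, 94.2 and 102 RPM at 72 h and at 323, 345 and 343 RPM at 240 h. This was a 3.46-fold rise (log2 fold change 1.79 ± 0.038), and the next highest group mean was 123 RPM, in 240 h ctrl. Nestin (Nes), Pax6 and Sox3 rose 2.14-, 2.82- and 2.94-fold, Sox4 fell 1.54-fold, and Sox1 was at 76.5 ± 4.95 and 74.8 ± 3.32 RPM (log2 fold change -0.030 ± 0.050). Pax6 thereby came back to about its control level, at 9.64 RPM against 11.4 and 8.02 RPM. So did Sox3, at 4.78 RPM against 4.57 and 3.83 RPM, whereas Nes ended above its controls, at 40.5 RPM against 26.8 and 25.7 RPM. Neuronal and synaptic genes gave 8 rises and 7 falls among 32 (25% and 21.9%, beside 12.3% and 12.8% of all genes). Trh, a neuropeptide gene, fell from 106, 113 and 109.7 to 31.9, 34.3 and 35.03 RPM, the lowest of the 5 groups, its controls being at 491 and 398 RPM. Snap25 and Chga fell 4.05- and 2.11-fold. Tubb3, Syt11, Rtn1 and Map2 rose 2.05-, 2.89-, 3.08- and 1.83-fold, yet of these 4 Rtn1 alone was again called higher against 48 h kd, where the list had 1 rise and 11 falls of 32, beside 8.29% and 7.03% of all genes. On log2(FPKM + 0.1) the calls of Rtn1 (0.39) and Map2 (0.32) were lost. The balance of this list thus depended on which early knockdown group was used. Tubb3, Syt11, Rtn1 and Map2 averaged 157, 30.4, 10.6 and 20.5 RPM in 240 h kd. Their means were 141, 27.3, 12.8 and 28.7 RPM in 48 h ctrl and 139, 30.7, 11.8 and 21.3 RPM in 240 h ctrl. Tubb3 overlaps Gm20388. In axon guidance 3 genes rose and 7 fell of 32 (9.38% and 21.9%, beside 12.3% and 12.8% of all genes). Efnb2, an ephrin, rose from 9.77, 10.8 and 11.5 to 39.98, 45.3 and 45.6 RPM, Slit2, a repellent ligand, fell from 24.3, 18.9 and 19.5 to 4.40, 4.89 and 5.36 RPM, a call lost on log2(FPKM + 0.1) (-0.51), and Ephb3, Plxnb2 and Ntn1 fell 1.89-, 1.60- and 1.58-fold.

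Genes of DNA replication and mitosis were seldom called, with 2 of 36 higher and 0 lower, or 5.56% beside 25.1% of all genes. The called genes were Cdc20 and Ccne2, at log2 fold changes of 0.62 and 0.95, and Ccne2 had -0.0053 against 48 h kd. Mcm2 and Mcm3, of the replicative helicase, had log2 fold changes of 0.13 and 0.022. Among G1 regulators 3 rose and 4 fell of 21 (14.3% and 19.05%, beside 12.3% and 12.8% of all genes). Cdkn1a, which encodes the cell cycle inhibitor p21, fell from 153, 156 and 149.9 to 70.9, 73.5 and 70.8 RPM, to about its 48 h kd level of 74.1 RPM and still above the controls at 52.6 and 52.1 RPM. The cell cycle factor gene E2f1 and Cdkn1b, which encodes p27, fell 1.77- and 1.57-fold. Ccnd2 rose 2.49-fold to 8.35 ± 1.36 RPM. Ccnd1 was at 109 ± 1.75 and 116 ± 6.38 RPM (0.087 ± 0.042, adjusted p = 0.0740), which is under its controls at 258 and 264 RPM. In the p53 list 1 gene, Perp, rose and 2, Cdkn1a and Ei24, fell of 25 (4% and 8%, beside 12.3% and 12.8% of all genes). Trp53 itself had 0.0025 ± 0.029, and Mdm2, which degrades p53, -0.41 ± 0.035 without a call.

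Of 28 subunits of BAF complexes 2 were called higher, namely Dpf1 and Smarca2, and 0 lower, which is 7.14% beside 25.1% of all genes. Both calls hung on single libraries, that of Dpf1 being lost without 72 h kd replicate 3 and that of Smarca2 without 240 h kd replicate 3 or 72 h kd replicate 2 and also on log2(FPKM + 0.1) (0.073). Smarca4, the ATPase of the embryonic stem cell complex, averaged 415 ± 9.81 and 446 ± 3.90 RPM (log2 fold change 0.10 ± 0.030). Of 13 PRC2 genes 3 rose and 1 fell, 30.8% in all beside 25.1% of all genes. Aebp2, an accessory subunit, rose from 91.1, 96.01 and 92.04 to 241, 226 and 233 RPM, with its controls at 101 and 107 RPM. Eed and Phf19 rose 1.67- and 1.84-fold, and both were not called against 48 h kd. Of the catalytic subunits, Ezh1 fell from 68.6 ± 2.13 to 37.3 ± 1.95 RPM, a call lost against 48 h kd (-0.38), and Ezh2 was at 184 ± 0.234 and 195 ± 4.62 RPM (0.085 ± 0.034).

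Of 20 interferon-linked genes 2 rose and 5 fell (10% and 25%, beside 12.3% and 12.8% of all genes), 1 of them passing the minimum through the higher group alone. The list median was -0.24 in knockdown and -0.22 in control, where 0 of 18 were called. The falls included the class I antigen presentation genes B2m, H2-K1 and Tap1. B2m, the light chain of class I molecules, was at 49.3, 46.2 and 47.4 RPM at 72 h and 13.4, 12.7 and 13.95 RPM at 240 h, close to its controls at 13.2 and 9.55 RPM. Tap1, the peptide transporter, went from 16.3 ± 1.37 to 9.97 ± 1.04 RPM, but overlaps Psmb9 and was at 6.72 RPM in 48 h kd. H2-K1 and the lysosomal reductase gene Ifi30 fell 1.57- and 2.84-fold, the former a call lost at -0.57 with values rescaled to TPM. Oas1a and Oasl2, sensors of double-stranded RNA and their relatives, rose at low level, to 4.82 ± 0.116 and 1.53 ± 0.141 RPM, Oasl2 passing the minimum through its 240 h libraries alone. The membrane protein gene Bst2 had a log2 fold change of -0.47 ± 0.045 and was not called.

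Germline genes, which DNA methylation silences in somatic cells, had 4 rises and 3 falls of 19 (21.1% and 15.8%, beside 12.3% and 12.8% of all genes). Taf7l, Rhox5 and the synaptonemal gene Sycp1 rose 2.55-, 2.44- and 2.10-fold. Rhox5 was also called higher in control (log2 fold change 0.71), and the call of Sycp1 was lost on log2(FPKM + 0.1) (0.55). Sycp3 and Stag3, of the meiotic chromosome axis, fell 1.92- and 1.80-fold, Stag3 from 56.3 ± 2.60 to 31.3 ± 4.02 RPM after 31.2 RPM at 48 h. Dazl and Ddx4, markers of germ cells, had -0.39 and 0.35 without a call. Maternal-effect genes had 4 rises and 3 falls of 14 (28.6% and 21.4%, beside 12.3% and 12.8% of all genes), 1 of them passing the minimum through the higher group alone. Khdc3 and Ooep, which encode partners in 1 complex of the egg, went in opposite directions, Khdc3 from 9.06, 10.7 and 9.11 to 25.8, 28.2 and 30.9 RPM and Ooep from 107, 109 and 110.0 to 40.7, 45.6 and 42.4 RPM. Dppa3 had -0.35 ± 0.049 without a call, and the folate receptor gene Folr1 rose from 21.7, 22.99 and 21.8 to 60.6, 59.5 and 55.7 RPM, though it overlaps Anapc15.

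The remaining lists are given more briefly, each beside 12.3% higher and 12.8% lower of all genes. Tubulins and kinesins had 3 rises and 2 falls of 26, keratins 3 and 1 of 7, FGF and ERK feedback genes 1 and 1 of 17, and Hox genes 2 and 0 of 6 with enough reads of 32 listed. The mitochondrially encoded genes had 2 rises and 0 falls of 7, and mt-Nd1 averaged 1784 RPM in 72 h kd, 3069.8 RPM in 240 h kd and 3236 RPM in 48 h kd. In the Emp and Pmp22 family, 2 genes rose and 2 fell of 6. In this family, the keratins and the Hox genes 1 call each passed the minimum through the higher group alone. Pmp22 rose from 0.313, 0.324 and 0.452 to 3.03, 2.55 and 4.04 RPM and Tmem47 fell 1.71-fold. Emp1 was at 2.11 ± 0.0771 and 2.48 ± 0.491 RPM without a call, against 51.3 and 50.1 RPM in the controls.

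To see how far days in culture alone change these genes, 240 h ctrl was set beside 48 h ctrl, as 72 h has no control. The limma fit called 221 of 16215 genes (1.36%), 139 higher (0.857%) and 82 lower (0.506%), the groups did not overlap for 31.8% of genes, and 12.7% had an adjusted p under 0.05 at any size. These calls depended on the test, since limma without the trend called 0 genes, with 3905 at an unadjusted p under 0.05, and limma voom called 220. The median absolute log2 fold change was 0.13, against 0.31 between the knockdown groups. Of the 3750 genes called in knockdown and also tested in control, 113 (3.01%) were called in both, which is 53.1% of the 213 control calls tested in knockdown. Directions were the same for 103, of which 64 rose and 39 fell, and opposite for 10. The comparisons share no library. Replicate 3 of 240 h ctrl differed most from its group, with chi-square over its degrees of freedom at 8.89 and 5.02 in its pairs and 2.23 between the others, and without it 309 control genes were called, 145 of them in both. Without 48 h ctrl replicate 3 the control comparison called 96 genes, with 53 called in both, and without 48 h ctrl replicate 2 it called 126, with 74 in both.

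Tchh, Ttn and Abcc2 had the largest shared rises by the smaller of both changes, at 2.88, 1.54 and 1.06 in knockdown and 1.37, 1.04 and 1.00 in control. Ttn, which encodes the muscle protein titin, rose from 15.4 ± 1.93 to 45.2 ± 6.23 RPM in knockdown and from 9.01 ± 0.723 to 18.7 ± 1.75 RPM in control. Pygm, Cib2 and Mcoln3 had the largest shared falls by the same measure, with log2 fold changes of -1.99, -1.13 and -1.35 in knockdown beside -1.25, -1.26 and -1.06 in control. Cubn, Col1a1, Rhox5 and Cldn3 were called in both comparisons as well. Culture time and knockdown time cannot be told apart for these genes or for any other. A missing call in control does not separate them, as 72 h has no control. On log2(FPKM + 0.1) the knockdown calls of Abcc2 (0.17) and Mcoln3 (-0.46) were lost. Tchh, Abcc2 and Mcoln3 averaged under 10 reads in the lower knockdown group and passed the minimum through the higher one. Cib2 was not called against 48 h kd and had the opposite sign there (0.67). Of the genes described above, Nphs1, Kirrel2 and Fabp3 had control changes of 0.15, -0.025 and -0.31, Peg10 of 0.28, Dnmt3b of -0.065, Vim of 0.11, Fn1 of 0.23 and Apoe of -0.054, none of them called. Fabp3, which fell as in knockdown, and Fn1, which rose, missed the call by size alone (limma adjusted p = 0.0113 and 0.00558).

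The course of the called genes over all 5 groups was then described. Of the 2120 genes that fell, 1649 (77.8%) had their highest group mean in 72 h kd, and 1359 (64.1%) had their lowest in 240 h kd. Of the 2030 genes that rose, 1419 (69.9%) were highest in 240 h kd and 1298 (63.9%) were lowest in 72 h kd. The selection of the genes by these 2 groups favours such courses. The 240 h ctrl mean lay nearer to 240 h kd than to 72 h kd for 60.5% of called genes, 53.99% of the rises and 66.8% of the falls, beside 62.1% of all tested genes. With 48 h ctrl in its place the share of called genes was 51.2%, beside 54.00%. For the falls this share exceeded, and for the rises it was below, that of all tested genes.

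Since 72 h kd lay farther from the controls than 48 h kd on the first component, 240 h kd was also compared with 48 h kd. That comparison called 2533 of 16532 genes (15.3%), 1370 higher (8.29%) and 1163 lower (7.03%), and 40.1% of genes had an adjusted p under 0.05 at any size of change. Of the 4041 genes called against 72 h kd and tested there, 1685 (41.7%) were called in the same direction and 31 in the opposite one. Replicate 2 of 48 h kd differed from the other 48 h kd libraries, since chi-square over its degrees of freedom was 9.14 and 11.3 in its pairs and 1.51 between the others, and without it 1756 genes were called in the same direction. Both comparisons share the 240 h kd libraries. Peg10 (1.81), Dnmt3b (0.92), Dnmt3l (1.20), Vim (1.72), Stra8 (4.10), Nphs1 (-1.33), Kirrel2 (-1.77), Fabp3 (-1.27) and Fn1 (-1.36) were called against 48 h kd, with the log2 fold changes given. Apoe (-0.52), Dppa5a (-0.29), Lefty1 (-0.32), Cdkn1a (-0.046) and Grb10 (-0.0081) were not. The calls of Pygm, Nr5a2, Dusp6, Myc, Lefty2, Rarg, Lrp2, Cldn3, Marveld1, Cnn3, E2f1, Gpt2, Cat, Zfp809, H2-K1, Plxnb2, Itgb3, Dusp1, Fosl2, Tcf7, Sycp3, Car3, Car14, Car5b, Cyp2s1, Cdkn1b, Perp, Ei24, Cdc20, mt-Nd1, Smarca2 and Dpf1 were lost there as well, with the same sign.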

How the data were processed

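RNA-seq of mouse embryonic stem cells was used, with 3 libraries per group. Per the labels and methods, the authors aligned single reads to GRCm38 (mm10) with STAR 2.7.0c and used DESeq2 1.30.0 in R 4.0.3. The deposited values are FPKM per gene. Multiplied by gene span they gave whole reads for 100% of values (tolerance 0.001), so RPM (reads per 1000000 of the library total) were recovered, with the 1-read step giving each total. Reads were counted over whole gene spans irrespective of strand, and sums over genes exceeded totals by 7.38% to 8.34%, so overlapping genes share reads. In 0 of 1222 pairs of a gene nested in one of the opposite strand (at least 100 reads over all libraries) did the inner gene have more reads than the outer. Gene identifiers come from GENCODE M21 (96.5% of genes matched) and promoter windows from RefSeq GRCm38.p6, where Peg10 and Tgm2 had no entry.

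Groups were compared with limma 3.58.1 in R 4.3.3 (lmFit, eBayes with trend, two-sided) on log2(RPM + 0.1) of genes averaging 10 reads or more, in a fit of the 6 libraries compared, with Benjamini-Hochberg adjustment. Fold changes are on this scale and understate those of low genes. Calls needed an adjusted p under 0.05 together with a log2 fold change beyond 0.58 in size. All adjusted p-values are from limma. Tested on simulated data with 196 genes changed 2-fold in the knockdown comparison (16573 genes), 92.3% were recovered with 4 false calls. In the control comparison (16210 genes) 88.3% were recovered with 2 false calls. The simulated reads had the same dispersion for every gene and few changed genes, unlike these data, so these rates need not hold for the calls given here.

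The genes and lists were chosen with earlier results of these data known. Named genes are the 3 markers, Smarcb1 and 5 pluripotency factors. To these come the 10 largest rises and 10 largest falls among called genes with at least 50 reads, non-overlapping groups and no predicted or small RNA name, the first 2 entries and up to 6 called members of each list by adjusted p, and the 3 strongest genes in each direction called in both comparisons. Some genes that this rule names are not reported here. Alternatives changed the pseudocount, unit, minimum, scaling, test, thresholds, block and libraries. Versions were Python 3.11.15, numpy 2.4.6, pandas 2.3.3 and matplotlib 3.10.9. Reads carry no molecular identifiers, and groups of 3 libraries limit the precision.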

Additional observations from a re-analysis of the deposited data

Results flagged for a closer look

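Among genes called in both comparisons, 6 of the named ones moved in opposite directions, every 240 h kd library lying on one side of all 72 h kd libraries and every 240 h ctrl library on the other side of all 48 h ctrl libraries. The difference between the 2 changes was not tested. Nkx6-3, a homeobox gene, had a log2 fold change of -1.97 in knockdown, from 11.95, 11.01 and 9.94 to 2.58, 3.10 and 2.50 RPM, and of 0.62 in control, from 6.12, 7.04 and 6.62 to 12.1, 9.58 and 9.06 RPM, and it was at 25.96, 20.98 and 25.8 RPM in 48 h kd. Cd68, a lysosomal protein of macrophages, had -1.07 in knockdown and 0.64 in control. Apol7d had -1.33 and 0.95, but its span overlaps that of Fn1, which fell far more in reads. In the other direction Dlk1, an imprinted gene, had 1.57 in knockdown and -1.01 in control, at no more than 2.59 RPM in any group. Sema6a, a semaphorin, had 0.75 and -0.82, and Glod5 had 1.23 and -0.74. On log2(FPKM + 0.1) the knockdown call of Sema6a was lost (0.40). Against 48 h kd, Sema6a (-0.014), Cd68 (-0.15), Apol7d (-0.45) and Dlk1 (0.45) were not called.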

How the results depend on the processing

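Of 239 tested genes named in the text, 208 were called, and none of these changed sign under an alternative of pseudocount, unit, minimum, scaling, test, threshold, block or left-out library in which it was tested, which was 142 of them with 0.5 FPKM and 177 with 50 reads. Of the genes not called, Sox1, Mcm3, Trp53 and Nodal, all within 0.06 of 0, changed sign under quantile normalization, rescaling to TPM or without 1 library. On log2(FPKM + 0.1) 20 calls were lost, given in the text, under quantile normalization 4 and under median-ratio scaling 1. Rescaled to TPM 13 calls were lost, namely those given in the text and those of Lamc1 (-0.53), Sox4 (-0.54), Ntn1 (-0.57), Cdkn1b (-0.57) and Ei24 (-0.53). Against 48 h kd, chosen after seeing the data, 59 of 207 calls were lost with the sign kept and 29 genes took the other sign, 12 of them called in neither comparison. The other 17 were Cib2 (0.67), Sema6a (-0.014), Pltp (0.87), Pim1 (0.010), Id1 (-0.11), Ccnd1 (-0.71), Ccnd2 (-0.20), Grb10 (-0.0081), Wt1 (-0.18), Magi2 (-0.40), Tap1 (0.56), Fos (0.52), Lef1 (-0.24), Nkd1 (0.063), Stag3 (0.027), Emp1 (-1.29) and Ccne2 (-0.0053). The cause was not tested.

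The 4150 calls became 2521 on log2(FPKM + 0.1), 1803 on that scale with a minimum of 0.5 FPKM, 2528 with 50 reads, 1671 above an absolute log2 fold change of 1 and 2533 against 48 h kd. Under these, rises went from 2030 to 1095, 738, 992 and 951 in the first 4, and to 3139 with no minimum. Falls went from 2120 to 1065 on log2(FPKM + 0.1) with 0.5 FPKM, 720 above 1 and 1163 against 48 h kd. Called genes whose 240 h ctrl mean lay nearer 240 h kd went from 2512 to 1598, 1200, 1638, 891 and 927 in the same order, with fewer genes called. In the control comparison, the 221 calls became 67 on log2(FPKM + 0.1), 54 on that scale with 0.5 FPKM, 107 with 50 reads, 360 rescaled to TPM, 50 above 1 and 96 at an adjusted p under 0.01, and the 113 calls in both became 29, 19, 56, 185, 18 and 56. Without the trend limma called 0 control genes, hence 0 in both, while 3905 had an unadjusted p under 0.05, and limma voom on recovered reads called 220.

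Leaving out 1 library gave 4002 to 4080 calls, 1932 to 2033 rises, 2033 to 2110 falls, 96 to 309 control calls, 53 to 145 in both and 2420 to 2488 nearer genes. Same-numbered libraries of 72 h kd and 240 h kd deviated with correlations of -0.00026, -0.11 and 0.031, and those of the controls with 0.35, -0.020 and 0.24, so the numbers were not taken to pair libraries. Not every library correlated best with its own number. With the replicate number as a block 4131 genes were called in knockdown and 333 in control, and the block changed no call of a named gene. Genes under 50 reads rest on few counts, and differences within the spread of 3 libraries were not detectable at this depth.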
